A study of Homo sapiens with 12 samples.

Results

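HCC70 cells, a human cell line of triple-negative breast cancer (TNBC), were compared after 24 h with 2.5 μM XY018 and after 24 h with vehicle. XY018 is a small-molecule antagonist of the nuclear receptor RORγ. These were 2 of the 12 RNA samples of a study that treated HCC70 and a second TNBC line, MDA-MB468, with RORγ antagonists and a statin. Both groups were HCC70 cells with no genetic change named in the labels, grown in RPMI with fetal bovine serum, and they differed by label only in the compound. The other HCC70 libraries came from cells given 1.25 μM XY018, 1.25 μM atorvastatin (ATV, a statin that blocks HMG-CoA reductase), or both compounds together, and their values are shown beside the comparison because they share its vehicle library. With 1 library per condition, no difference could be set against the spread between replicates, and p-values are not reported. Expression is in FPKM, a fragment count divided by the length of the transcript and by the size of the library. Of 16491 genes listed for HCC70, the 11721 with at least 1 FPKM in the vehicle or the 2.5 μM library were compared. The change of a gene is log2((XY018 + 0.1)/(vehicle + 0.1)), and genes past 1.5-fold count as lower or higher, a log2 ratio of 0.585 in either direction.

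Cells hold their sterol content steady through opposing transcription factors. SREBP2 switches on cholesterol synthesis and uptake when sterol is short, and the liver X receptors (LXRs) switch on sterol export when oxysterols accumulate. Around these lie the pathways described here: fatty acid synthesis and storage, the amino acid and endoplasmic reticulum stress responses, cytokine and growth factor signalling, and the keratin and S100 genes that mark basal-type breast cancer cells.

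At 2.5 μM XY018, 382 genes were lower than vehicle, which is 3.26% of the genes compared, and 307 were higher, which is 2.62%. These shares are the background for the counts of list members past 1.5-fold given below. The median log2 ratio was −0.02 and the central 95% of genes lay between −0.66 and 0.60. A gene with a ratio of 0, NR4A2, ranked 5274 from the top and 6401 from the bottom. More of the genes compared thus lay below vehicle than above it. At least 2-fold lower were 104 genes and at least 2-fold higher were 87. The estimated depth was 9810000 fragments for vehicle and 10000000 for 2.5 μM XY018, and the range over the 5 HCC70 libraries was 9260000 to 10100000. Counting intervals (95%, exact Clopper-Pearson) of the log2 ratios rest on estimated fragments per gene, cover counting error alone, and are given in brackets as "interval". They lay below 0 for 291 of the 377 lower genes with an interval, and above 0 for 247 of the 301 higher ones. Of the genes past 1.5-fold, 140 lower and 141 higher genes reached 5 FPKM in at least one of the libraries. The vehicle cells expressed the epithelial genes EPCAM (69.1 FPKM), CDH1 (168), KRT8 (313) and KRT18 (247), and the basal keratin gene KRT5 (660) with EGFR (48.0). ESR1, the estrogen receptor gene that TNBC lacks, was at 0.56 FPKM. The housekeeping gene GAPDH was at 2388 and 2395 FPKM and the proliferation marker MKI67 at 70.8 and 75.7 FPKM, in vehicle and XY018 respectively.

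**Figure D1:**
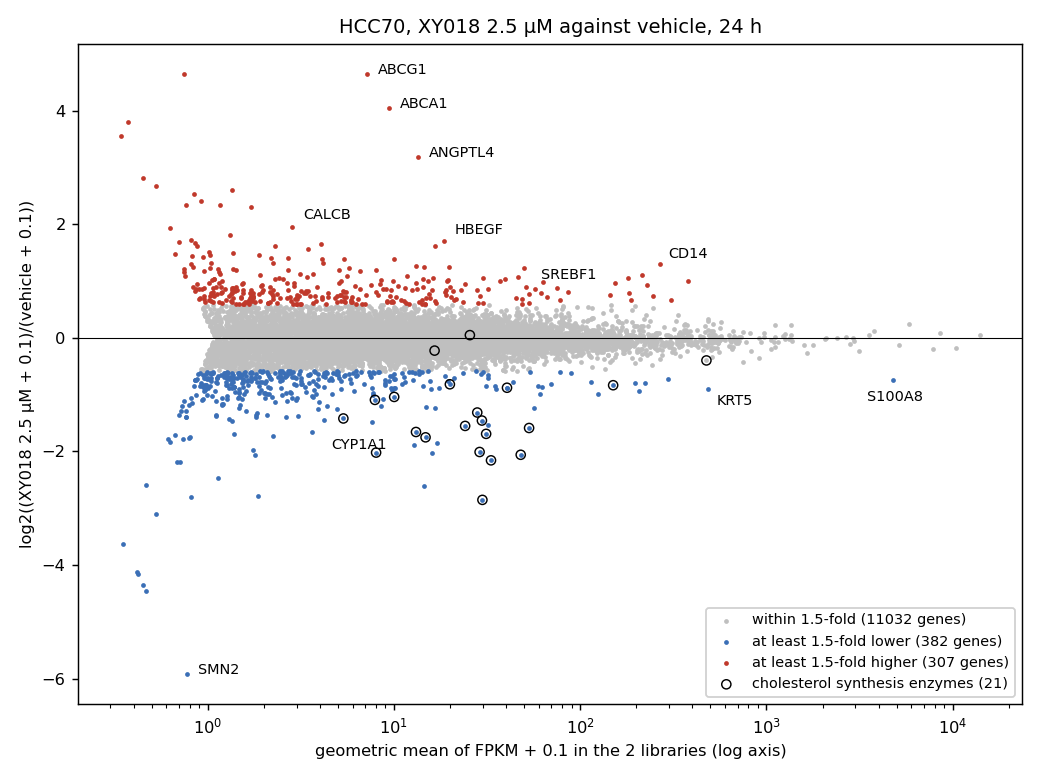
Each point is 1 of the 11721 genes compared, with its level in FPKM on a log axis across and its log2 ratio of 2.5 μM XY018 to vehicle upwards. Blue points are the 382 genes at least 1.5-fold lower, red points the 307 at least 1.5-fold higher and black rings the 21 cholesterol synthesis enzymes; ABCG1, ABCA1 and ANGPTL4 stand highest among the labelled genes, and the ratio of SMN2, listed at 0 with XY018, is set by the pseudocount of 0.1.

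ABCG1 and ABCA1, sterol exporters of the LXR programme, ranked 1 and 3 from the top by ratio among all genes compared. Both were weakly expressed with vehicle and passed 5 FPKM only in the libraries with XY018. ABCA1, which loads cholesterol onto apolipoprotein A-I, lies on chromosome 9 of GRCh37 from 107543287 to 107690436. It was at 2.22 FPKM with vehicle, 24.3 with 1.25 μM XY018, 38.3 with 2.5 μM XY018, 1.65 with ATV and 27.0 with both compounds. The 3 libraries with XY018 were far above the 2 without it, and the log2 ratio at 2.5 μM was 4.05 (interval 3.92 to 4.31). ABCG1, which passes cholesterol to mature HDL, lies on chromosome 21 from 43619799 to 43717354. Its levels in the same order were 1.34, 22.6, 35.9, 1.26 and 24.9 FPKM, again high only in the XY018 libraries, with a log2 ratio of 4.65 (4.27 to 5.24) at 2.5 μM. SREBF1, the gene of the lipogenic factor SREBP1 and itself an LXR target, was at 37.4, 64.9, 69.9, 41.9 and 87.6 FPKM, and its log2 ratio was 0.90 (0.83 to 0.99). PLTP, the phospholipid transfer protein of plasma lipoproteins, was at 24.1 FPKM with vehicle and 37.2 with 2.5 μM XY018, a log2 ratio of 0.62. These 4 were the only genes past 1.5-fold among the 15 LXR receptors and targets compared, beside 2.62% higher over all genes. None of the 15 was lower. The list's median was 0.21, beside −0.02 for all genes. The other targets lay closer to vehicle: MYLIP, an E3 ubiquitin ligase, had a log2 ratio of 0.53, LPCAT3, which remodels phospholipids, 0.49 and the desaturase SCD 0.21. The receptors themselves were at like levels in both libraries, NR1H3 (LXRα) at 7.23 and 6.90 FPKM and NR1H2 (LXRβ) at 45.9 and 46.9 FPKM. Their partner RXRA was at 21.4 and 15.7 FPKM.

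The promoter stretch of ABCA1 is shown because this gene carried one of the highest ratios and because LXRs bind paired half-sites with the letters AGGTCA spaced 4 bases apart. The sequence is from RefSeq on GRCh38.p14, a build other than that of the expression values, from chromosome 9, 104928179 to 104928332, minus strand, all of it before the start site. Capitals mark an E-box (CACGTG) and a half-site pair with up to 2 mismatches, searched on both strands.
ABCA1: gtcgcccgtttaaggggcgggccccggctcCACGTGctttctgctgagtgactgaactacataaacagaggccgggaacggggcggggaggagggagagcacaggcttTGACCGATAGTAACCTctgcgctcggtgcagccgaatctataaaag
Such a pair was found in 2.42% of 27305 RefSeq promoters of 250 bases before to 50 after the start, and an E-box in 7.43%. Of the genes past 1.5-fold that a fixed rule named (the largest ratios, the list members and some single genes), 74 were higher, 59 of these had a promoter in this set, and 5 of the 59 held the pair: ABCA1, ACSL3, SERPINA3, CYP3A5 and TMEM156. None of the 49 promoters of lower named genes held it. With no mismatch allowed, the pair occurred in 0.0183% of all promoters and in none of the 59 or 49. The mismatch allowance was chosen after the exact search had been seen, and a match is a description of letters, not of binding.

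On a list of SREBP2 targets outside the synthesis pathway, 5 of the 9 genes compared were lower and none higher. STARD4, a cytosolic sterol carrier, was low throughout, at 1.36 FPKM with vehicle, 0.39 with 1.25 μM XY018, 0.22 with 2.5 μM XY018, 1.59 with ATV and 0.45 with both, and its log2 ratio at 2.5 μM was −2.19 (interval −3.77 to −1.66). TMEM97, the sigma-2 receptor, fell by 0.81 and LPIN1, a phosphatidate phosphatase, by 0.75. ATV alone was above vehicle for STARD4, and every library with XY018 was below it. The median of this list was −0.75, beside 18 lower and none higher of the 21 synthesis enzymes, with a median of −1.46. The lysosomal cholesterol exporters NPC1 (log2 ratio 0.29) and NPC2 (0.01) stayed within 1.5-fold. So did MYLIP, which is on this list but is also one of the LXR targets above. Its log2 ratio was 0.53 (0.30 to 0.77) at 2.5 μM XY018 and −0.52 with ATV alone. INSIG1, which holds SREBPs in the endoplasmic reticulum when sterol is plentiful (chromosome 7 of GRCh37, 155089486 to 155101945), followed the same order at 32.3, 11.4, 7.79, 44.8 and 9.75 FPKM, with a log2 ratio of −2.04 (−2.26 to −1.83). SREBF2, which encodes SREBP2, was at 137 and 96.0 FPKM, a log2 ratio of −0.52 (−0.56 to −0.46). INSIG1 and SREBF1 were the only members of the 7-gene SREBP system past 1.5-fold, and they went in opposite directions.

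Other genes tied to sterols stood among the lowest ratios. ERG28, a scaffold of the sterol-demethylating enzymes, was at 86.5 FPKM with vehicle and 36.8 with 2.5 μM XY018, a log2 ratio of −1.23 (interval −1.35 to −1.11). MMAB, a vitamin B12 enzyme whose gene shares a promoter region with the mevalonate kinase gene MVK, went from 5.91 to 2.43 FPKM, a log2 ratio of −1.25, next to −1.42 for MVK. SULT2B1, a sulfotransferase of cholesterol and oxysterols, went from 5.74 to 2.56 FPKM, a log2 ratio of −1.13 (−1.82 to −0.50).

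Fatty acid synthesis did not move as one group. Of 18 genes compared, 6 were lower and 1 higher, and the median log2 ratio was −0.19. FADS2, the first desaturase of polyunsaturated fatty acids (chromosome 11, 61560452 to 61634826), was at 54.0 FPKM with vehicle, 23.4 with 1.25 μM XY018, 18.7 with 2.5 μM XY018, 93.0 with ATV and 25.3 with both, and its log2 ratio was −1.53 (interval −1.67 to −1.39). FADS1, the second desaturase of that route, fell by 1.01, and FADS3 fell by 0.72. PNPLA3, a lipid droplet enzyme, was at 6.87, 2.85, 2.46, 7.25 and 3.13 FPKM, a log2 ratio of −1.45. FASN, the fatty acid synthase, was at 79.2, 48.7, 43.8, 113 and 54.2 FPKM, a log2 ratio of −0.85 (−0.91 to −0.79), and SLC25A1, the mitochondrial citrate exporter that feeds it, fell by 0.61. For FADS2, PNPLA3 and FASN each XY018 library lay below vehicle, and with ATV alone each lay above it, PNPLA3 by a log2 ratio of 0.08. SCD, the stearoyl-CoA desaturase, was above vehicle in every treated library, at 78.6, 93.2, 90.8, 103 and 92.8 FPKM, but within 1.5-fold. ELOVL6, which extends saturated chains, was the 1 higher gene, at 3.69 and 6.07 FPKM and a log2 ratio of 0.70 (0.49 to 0.96).

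Some genes of lipid droplets, fatty acid storage and lipase inhibition were among the highest ratios, whereas the lipid droplet enzyme PNPLA3 was lower at −1.45. The list of 28 fatty acid oxidation and storage genes as a whole had a median of 0.03, with 4 higher and 1 lower. ANGPTL4, a secreted inhibitor of lipoprotein lipase (chromosome 19, 8428173 to 8439254), was at 4.38 FPKM with vehicle, 13.6 with 1.25 μM XY018, 40.8 with 2.5 μM XY018, 6.10 with ATV and 21.99 with both. Its log2 ratio was 3.19 (interval 2.88 to 3.57), and it stood well apart between the XY018 doses. PLIN2, the coat protein of lipid droplets, was at 126, 177, 261, 138 and 216 FPKM, a log2 ratio of 1.05 (0.98 to 1.13). ACSL3, which activates fatty acids for storage, was at 32.5, 65.1, 76.8, 31.2 and 66.7 FPKM, a log2 ratio of 1.24. PDK4, which turns glucose oxidation down in favour of fat, was weakly expressed at 1.24, 2.85, 3.43, 2.07 and 4.0 FPKM, a log2 ratio of 1.40 (0.98 to 2.02). Outside that list G0S2, an inhibitor of the triglyceride lipase ATGL, rose from 2.53 to 6.47 FPKM, with a wide interval of 0.58 to 2.14 around its log2 ratio of 1.32. The lower gene of the list was FABP5, a fatty acid carrier, at 260 and 149 FPKM, and MOGAT2, which makes diacylglycerol, was lower at 7.52 and 3.09 FPKM. The carnitine palmitoyltransferases and other enzymes of beta-oxidation on the list lay within 1.5-fold.

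**Figure D2:**
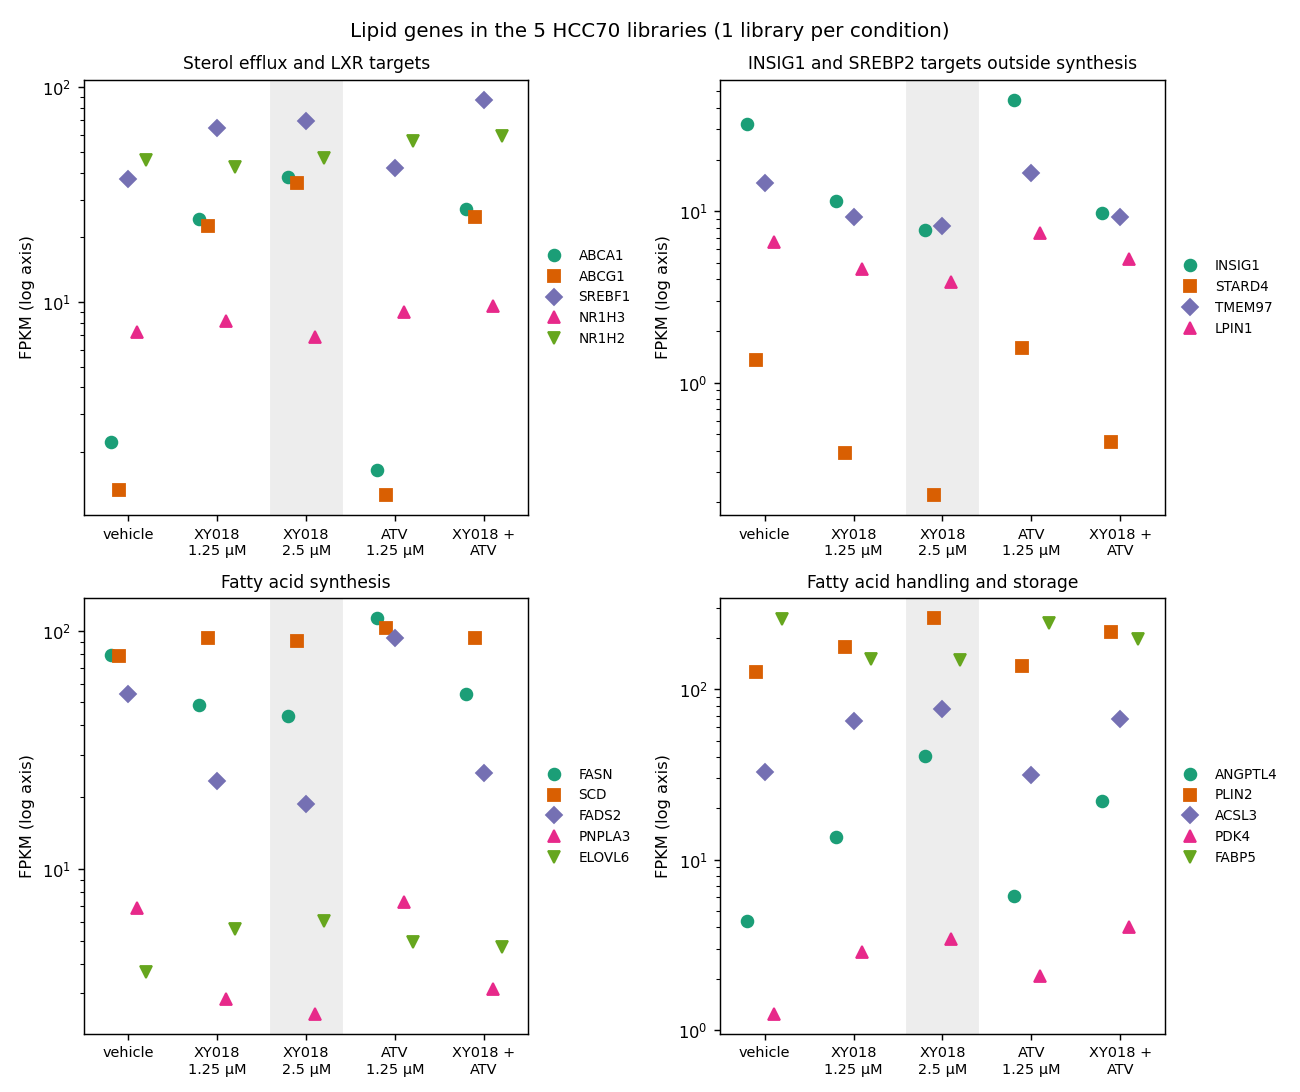
Points give the FPKM (log axis) of lipid genes in the 5 HCC70 libraries, 1 library per condition, with the 2.5 μM XY018 library shaded. ABCA1, ABCG1 and ANGPTL4 stand above vehicle in the XY018 libraries, INSIG1, STARD4 and FADS2 stand below it, and NR1H3, NR1H2 and SCD stay within 1.5-fold of vehicle at 2.5 μM.

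Phospholipid and sphingolipid enzymes were balanced, with 3 lower and 1 higher of 24 and a median of −0.00. SPTLC2, a subunit of the enzyme that starts sphingolipid synthesis, was at 13.6 FPKM with vehicle, 23.9 with 1.25 μM XY018, 27.7 with 2.5 μM XY018, 13.7 with ATV and 27.4 with both, a log2 ratio of 1.02 (interval 0.92 to 1.14). It was raised in each XY018 library and level with vehicle under ATV. The ceramide synthase CERS4 went from 2.15 to 0.86 FPKM, an interval of −2.30 to −0.43, and PLA2G4A, which frees arachidonic acid, from 11.9 to 7.42. LPIN1 was the other lower gene.

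RORA, another ROR family gene, was at 0.20 FPKM or below in every HCC70 library. ROR proteins and REV-ERB proteins act on shared sites in the circadian clock, and of 16 clock genes 1 was higher and none lower, with a median of 0.03. The higher gene was BHLHE41, a clock repressor, with a log2 ratio of 0.66. The REV-ERB genes NR1D1 (log2 ratio 0.57) and NR1D2 (0.42) and BMAL1 (0.44), the transcriptional activator of the clock, lay above vehicle but within 1.5-fold. Of 12 other nuclear receptors NR4A1, an early-response receptor, was higher at 1.64 and 2.61 FPKM, beside 2.62% higher over all genes. The letters TAGGTCA, a ROR element, occurred in the promoters of HBEGF and DSC2 among the named genes past 1.5-fold, 1 of 59 higher and 1 of 49 lower, and in 1.87% of all promoters.

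The integrated stress response, in which the factor ATF4 raises amino acid supply genes when translation is held back, was higher in part. Of 17 genes compared 7 were higher and none lower, beside 2.62% higher over all genes. The list's median was 0.45, with 0.27 in the 1.25 μM XY018 library and 0.10 with ATV. DDIT3, which encodes the stress factor CHOP, was at 8.38 FPKM with vehicle, 13.2 with 1.25 μM XY018, 15.5 with 2.5 μM XY018, 12.7 with ATV and 18.8 with both, a log2 ratio of 0.88 (interval 0.46 to 1.32). CHAC1, a glutathione-degrading enzyme, was at 9.28, 13.6, 18.3, 12.4 and 19.6 FPKM, a log2 ratio of 0.97. SESN2, a leucine sensor that restrains mTORC1, was at 13.6, 22.2, 27.1, 18.6 and 25.6 FPKM, a log2 ratio of 0.99. All 3 of these genes were above vehicle with ATV alone as well, by less than with 2.5 μM XY018. DDIT4, another mTORC1 inhibitor, was at 26.1 and 52.3 FPKM, a log2 ratio of 1.00 without an interval, since no transcript length was matched to it. VLDLR, a lipoprotein receptor, had a log2 ratio of 0.84. GDF15 and FGF21, stress hormones, were near the lower limit of detection at 0.60 and 2.35 FPKM and at 0.40 and 1.02 FPKM. The interval of FGF21, −0.23 to 3.19, included 0. With a pseudocount of 1, FGF21 was within 1.5-fold and 6 genes of the list were higher. The ATF4 transcript itself was at 295 and 362 FPKM, a log2 ratio of 0.29.

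Amino acid supply genes downstream of ATF4 were higher in part. ASNS, asparagine synthetase (chromosome 7, 97480989 to 97501854), was at 64.5 FPKM with vehicle, 98.3 with 1.25 μM XY018, 114 with 2.5 μM XY018, 79.6 with ATV and 135 with both, a log2 ratio of 0.82 (interval 0.73 to 0.91). CBS and CTH, the enzymes that convert homocysteine to cysteine, had log2 ratios of 0.77 and 0.74, and SLC7A5, the large neutral amino acid transporter, went from 150 to 237 FPKM, a log2 ratio of 0.66. With MTHFD1L, a mitochondrial folate enzyme, these made 5 higher and none lower of 24 genes of serine, one-carbon and amino acid uptake. Over all genes compared, 2.62% were higher. The list's median was 0.41. PSAT1 and PHGDH, enzymes of serine synthesis, were within 1.5-fold at log2 ratios of 0.55 and 0.40. None of 20 aminoacyl-tRNA synthetases, which charge tRNAs and are also ATF4 targets in part, passed 1.5-fold, but 17 lay above vehicle and the median was 0.24, from −0.21 for FARSB to 0.58 for CARS1. Among 22 endoplasmic reticulum chaperone and stress genes the median was 0.10, and ERN1, the stress sensor IRE1α, and HERPUD1, a degradation factor, were higher with log2 ratios of 0.74 and 0.61. SLC6A14, an amino acid transporter on none of these lists, was among the lowest ratios at 22.6 and 9.62 FPKM.

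The promoter stretches of ASNS and CHAC1 are shown because both genes were higher and both hold the letters TGATGNAAN, a composite element of C/EBP and ATF factors, marked in capitals. Both are RefSeq sequences on GRCh38.p14 that end before the start site, ASNS from chromosome 7, 97872438 to 97872506, minus strand, and CHAC1 from chromosome 15, 40953231 to 40953299, plus strand. In CHAC1 the match is on the opposite strand.
ASNS: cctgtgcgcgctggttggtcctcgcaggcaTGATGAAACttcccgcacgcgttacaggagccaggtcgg
CHAC1: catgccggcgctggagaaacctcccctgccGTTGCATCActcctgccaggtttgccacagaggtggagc
These letters were present in 8 of the 59 promoters of higher named genes and in none of the 49 of lower named genes, and in 3.67% of all 27305 promoters. The 8 genes were ASNS, CHAC1, FGF21, HERPUD1, MTHFD1L, S100P, CYP2B6 and BCL2A1. The named genes were chosen by their ratios and lists, so these counts describe them and test nothing.

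Hypoxia and glucose genes rose in part. Hypoxia genes outside glycolysis had a median of 0.32 at 2.5 μM and 0.09 at 1.25 μM. Of the 17 compared, 7 were higher and none lower, beside 2.62% higher over all genes. Besides ANGPTL4 they included NDRG1, a differentiation gene, at 44.6 FPKM with vehicle, 63.1 with 1.25 μM XY018, 88.5 with 2.5 μM XY018, 47.2 with ATV and 70.2 with both, a log2 ratio of 0.99. VEGFA, the angiogenic factor, was at 51.7, 66.6, 84.8, 51.6 and 78.6 FPKM, a log2 ratio of 0.71, and CA9, carbonic anhydrase IX, was at 4.08, 4.27, 7.19, 3.35 and 3.48 FPKM, a log2 ratio of 0.80. VEGFA and NDRG1 were raised in each XY018 library, whereas CA9 was raised at 2.5 μM alone among these 5 libraries. STC2, a secreted glycoprotein, had a log2 ratio of 0.89. ADM and BNIP3 were also higher, with intervals of −0.01 to 1.28 and −0.19 to 1.58 that include 0. The rest of the list stayed within 1.5-fold, from −0.30 for EGLN3 to 0.37 for P4HA1. Among them LOX was at −0.26, HILPDA at −0.04 and CA12 at 0.00. Of 22 glycolysis genes 3 were higher: SLC2A1, the glucose transporter GLUT1, from 46.4 to 80.5 FPKM, PFKFB3, an activator of glycolytic flux, from 42.3 to 76.7 FPKM, and ENO2 from 1.26 to 2.17 FPKM. The median of the glycolysis list was 0.01, and LDHA and PGK1 had log2 ratios of −0.09 and −0.05. Of 5 glucose-regulated arrestin genes ARRDC3 was higher, with a log2 ratio of 0.66, and TXNIP was at 71.8 and 80.0 FPKM. Among 18 p53 targets 2 were higher, GDF15 and SESN2, which are also stress response genes, and CDKN1A, the p53-driven cell cycle inhibitor p21, was at 88.6 and 102 FPKM.

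**Figure D3:**
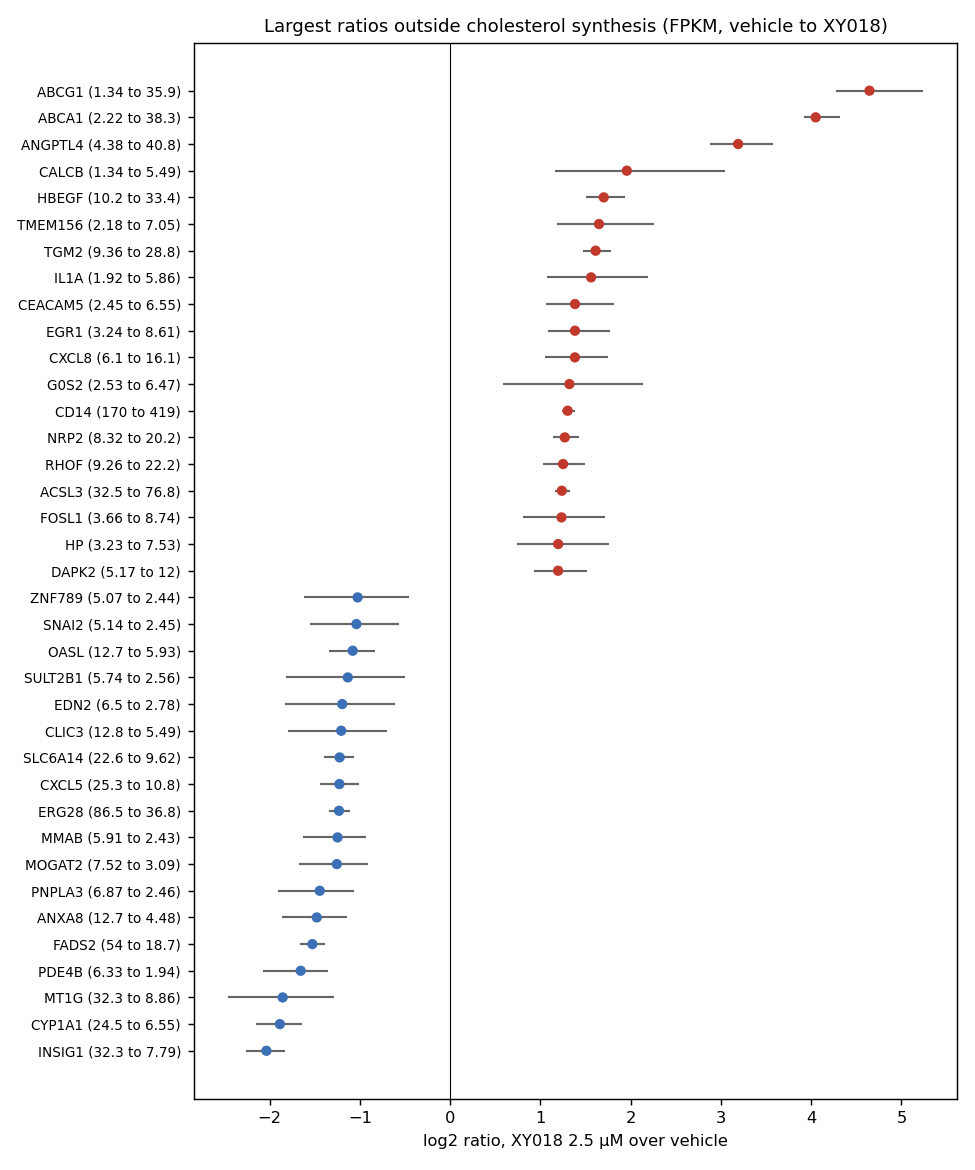
Points are the log2 ratios of 19 of the 20 highest and 18 of the 20 lowest genes that reached 5 FPKM in either library, outside the cholesterol synthesis enzymes and SMN2, with bars for the counting interval and both FPKM values beside each name. The ratios shown run from 4.65 for ABCG1 to −2.04 for INSIG1, and all of the bars shown stay on 1 side of 0.

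Inflammatory genes split. Of 27 NF-κB targets and chemokines 6 were higher and 2 lower, with a median of 0.13. Over all genes 2.62% were higher and 3.26% lower. IL1A, the alarmin interleukin, was at 1.92 FPKM with vehicle, 3.48 with 1.25 μM XY018, 5.86 with 2.5 μM XY018, 1.41 with ATV and 4.97 with both, a log2 ratio of 1.56 (interval 1.08 to 2.2). IL1B was at 7.94, 11.8, 17.1, 5.55 and 12.3 FPKM, a log2 ratio of 1.10, and CXCL8, the neutrophil chemokine interleukin-8, at 6.10, 10.4, 16.1, 5.30 and 8.36 FPKM, a log2 ratio of 1.38. These 3 were above vehicle in every XY018 library and below it with ATV. TNFAIP2, a TNF-induced gene, rose from a high level, 270 to 537 FPKM, a log2 ratio of 0.99. The cytokine LIF and the adhesion receptor ICAM1 had log2 ratios of 0.75 and 0.71. The chemokines CXCL5 and CXCL6 went down instead: CXCL5 was at 25.3, 14.7, 10.8, 19.4 and 7.99 FPKM, a log2 ratio of −1.23 (−1.44 to −1.01), and CXCL6 fell by 0.75. CXCL1, of the same chemokine family, was at 96.1 and 74.4 FPKM. CXCL5 and CXCL6 are similar in sequence, so reads may have been shared between them.

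Acute phase and secretory genes had a median of 0.21, with 3 higher and 1 lower of 21. SERPINA3, a protease inhibitor, was at 244 FPKM with vehicle, 347 with 1.25 μM XY018, 387 with 2.5 μM XY018, 265 with ATV and 423 with both, a log2 ratio of 0.66 (interval 0.61 to 0.73). HP, the haptoglobin gene, went from 3.23 to 7.53 FPKM. SAA4 was at 0.45 and 3.23 FPKM, with about 3 and 19 estimated fragments, and is a member of a family of similar genes. ORM1 was lower at 2.59 and 1.48 FPKM with an interval of −1.97 to 0.42 that includes 0, and its near copy ORM2 was at 9.84 and 13.2 FPKM. CD14, the coreceptor for bacterial lipopolysaccharide and a monocyte marker (chromosome 5, 140011313 to 140013285), was at 170, 317, 419, 171 and 380 FPKM, a log2 ratio of 1.30 (1.24 to 1.38), high in every library with XY018. CDH5, the endothelial cadherin, was at 0.25, 1.64, 1.93, 0.17 and 2.28 FPKM. No other gene of the 6 markers of other cell types compared passed 1.5-fold. Among these 6, PECAM1 was at 1.03 and 1.07 FPKM and ADIPOQ at 0.77 and 1.13 FPKM. The leukocyte gene PTPRC, below 1 FPKM and so not compared, was at 0.22 and 0.63 FPKM, a log2 ratio of 1.19 (0.59 to 2.73). Also below 1 FPKM were the T cell gene CD3E, at 0.07 in both libraries, and the endothelial gene VWF, at 0.04 and 0.01. The fibroblast genes PDGFRA and PDGFRB were at 0.10 or below, and COL3A1 and HBA1 were listed at 0. The summed level of the marker list was 257 FPKM with vehicle and 520 with XY018, nearly all of it CD14 and CD68.

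Of the 10 genes of the EGFR family list 2 were higher and none lower. HBEGF, a membrane-bound EGFR ligand (chromosome 5, 139712428 to 139726188), was at 10.2 FPKM with vehicle, 21.6 with 1.25 μM XY018, 33.4 with 2.5 μM XY018, 11.6 with ATV and 29.6 with both, a log2 ratio of 1.70 (interval 1.5 to 1.94). AREG, another EGFR ligand, had a log2 ratio of 0.63, and 0.54 with a pseudocount of 1, within 1.5-fold. EPGN, another ligand, was at 8.08 and 5.39 FPKM, a log2 ratio of −0.58 (−0.89 to −0.26) just short of 1.5-fold. The receptor genes EGFR and ERBB2 had log2 ratios of 0.01 and −0.02. Of 26 genes of MAPK feedback and early response 6 were higher, beside 2.62% over all genes, and none lower, with a median of 0.34. The count higher was 4 with a pseudocount of 1 and 3 with a filter of 5 FPKM. EGR1 was at 3.24, 5.51, 8.61, 6.75 and 15.4 FPKM, a log2 ratio of 1.38 (1.08 to 1.77), and with ATV alone its log2 ratio was 1.04. FOSL1 and FOS, subunits of the AP-1 factor, had log2 ratios of 1.23 and 0.85, and DUSP4, ETV5 and SPRY4, which are induced by ERK signalling, 0.82, 0.73 and 0.64. With a pseudocount of 1, ETV5 and SPRY4 were at 0.52 and 0.36, within 1.5-fold. Among 12 Krueppel-like factors KLF4, an epithelial differentiation factor, was at 14.2, 18.7, 24.8, 13.5 and 21.8 FPKM, a log2 ratio of 0.80, while KLF2 was at 0.37 and 0.55. Of 22 actin and SRF target genes only MYL9 passed 1.5-fold, at 0.51 and 1.03 FPKM, with an interval of −0.0016 to 2.01 that includes 0. ACTB, the cytoskeletal actin, was at 3399 and 2896 FPKM, a log2 ratio of −0.23. None of 10 YAP and TAZ targets passed 1.5-fold.

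KRT5 and the keratins of activated basal cells (KRT6A, KRT6B, KRT16 and KRT17) were lower. In bulk RNA, fewer cells of a type and less RNA per cell cannot be told apart. Of 13 keratin genes 5 were lower and 1 higher, with a median of −0.41. Over all genes 3.26% were lower and 2.62% higher. KRT5, the defining basal keratin (chromosome 12, 52908359 to 52914314), was at 660 FPKM with vehicle, 408 with 1.25 μM XY018, 355 with 2.5 μM XY018, 568 with ATV and 315 with both, a log2 ratio of −0.90 (interval −0.93 to −0.85). KRT6A was at 85.4, 50.5, 43.1, 65.2 and 40.9 FPKM, KRT16 at 287, 165, 149, 279 and 186 FPKM, and KRT17 at 379, 232, 230, 302 and 166 FPKM, with log2 ratios of −0.98, −0.94 and −0.72. KRT6B fell by 0.80. In each of these keratins the XY018 libraries were lower than both the vehicle and the ATV library. KRT6A, KRT6B, KRT16 and KRT17 have close paralogs or pseudogenes that can share reads. The basal keratins KRT14, at 7.32 and 5.50 FPKM, and KRT15, at 8.85 and 10.4 FPKM, did not pass 1.5-fold. The luminal keratins stayed within 1.5-fold, KRT8 at 313 and 285 FPKM, KRT18 at 247 and 262 FPKM and KRT19 at 871 and 646 FPKM. KRT23 was the higher gene, at 39.5 and 60.1 FPKM and a log2 ratio of 0.60. S100A8, a calcium-binding alarmin of squamous and myeloid cells, was among the most abundant transcripts and was at 6155, 4349, 3687, 4988 and 3708 FPKM, a log2 ratio of −0.74 (−0.76 to −0.70), with ATV alone also below vehicle. Its partner S100A9 was at 8360 and 7322 FPKM. Of 12 S100 genes 11 lay below vehicle, the side on which more of all genes compared also lay. S100A8 and S100A2 were the lower genes. S100A2 was just at the threshold, with a log2 ratio of −0.585, and within 1.5-fold at −0.55 with a pseudocount of 1. S100P alone was higher, at 191, 282, 317, 206 and 354 FPKM and a log2 ratio of 0.73 (0.61 to 0.87).

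Cell adhesion and mesenchymal genes had a median of −0.09, with 2 lower of 26. Over all genes 3.26% were lower and 2.62% higher. SNAI2, a factor of the epithelial to mesenchymal transition, was at 5.14 FPKM with vehicle, 4.78 with 1.25 μM XY018, 2.45 with 2.5 μM XY018, 4.20 with ATV and 5.01 with both, so that 2.5 μM XY018 stood below the other 4 libraries. The desmosomal cadherin DSC2 fell by 0.62. In the TGF-β pathway 2 of 20 genes were lower and 1 higher: INHBA, an activin subunit, and ID2, an inhibitor of helix-loop-helix factors, fell by 0.98 and 0.74, and TGFB1 went from 3.75 to 6.29 FPKM. TGM2, a transglutaminase that crosslinks matrix proteins, was at 9.36, 21.3, 28.8, 8.47 and 21.9 FPKM, a log2 ratio of 1.61 (interval 1.47 to 1.78). It was high in the XY018 libraries alone. The 9 genes of breast line identity stayed within 1.5-fold, the lowest being the basal factor FOXC1 at 18.1 and 12.8 FPKM.

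**Figure D4:**
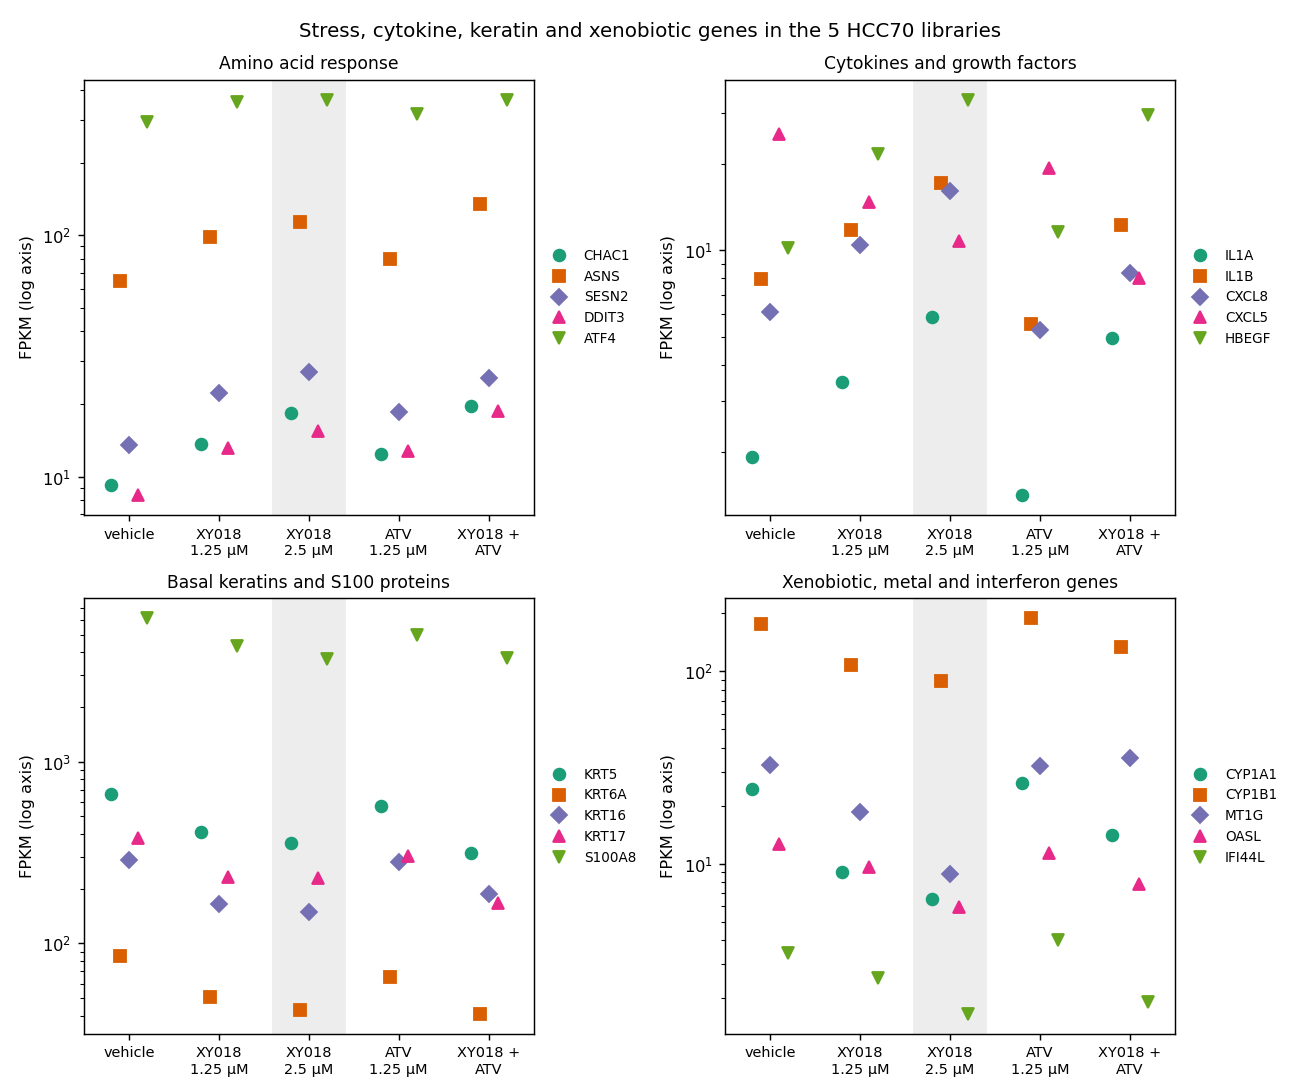
Points give the FPKM (log axis) of amino acid response, cytokine, keratin and S100, and xenobiotic, metal and interferon genes in the 5 HCC70 libraries, 1 library per condition, with 2.5 μM XY018 shaded. HBEGF and IL1A stand above vehicle in the XY018 libraries, CXCL5, KRT5 and CYP1A1 below it, and MT1G is low at 2.5 μM but not in the library with both compounds.

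The xenobiotic metabolism list, which also holds enzymes of vitamin D and retinoic acid, moved in both directions. Of 19 genes 3 were lower and 4 higher, with a median of 0.08. CYP1A1, the classical target of the aryl hydrocarbon receptor (chromosome 15, 75011883 to 75017877), was at 24.5 FPKM with vehicle, 9.05 with 1.25 μM XY018, 6.55 with 2.5 μM XY018, 26.2 with ATV and 14.1 with both, a log2 ratio of −1.89 (interval −2.15 to −1.65). CYP1B1, a second target of that receptor, was far more abundant, at 176, 108, 88.5, 187 and 133 FPKM, a log2 ratio of −0.99 (−1.03 to −0.93). Both genes were below vehicle in every XY018 library and lowest at 2.5 μM. TIPARP, CYP1A2 and NQO1, also linked to that receptor, stayed within 1.5-fold, with log2 ratios of 0.24 (0.095 to 0.39), 0.25 and −0.20. UGT1A6, a glucuronosyltransferase that shares exons with the other UGT1A genes, fell by 0.88. The 5-letter core GCGTG of that receptor's sites, a motif added after the ratios had been seen, occurred in 27 of 49 promoters of lower named genes, 28 of 59 of higher ones and 36.3% of all promoters. CYP24A1, which inactivates vitamin D, was the best expressed of the higher genes, at 11.1, 21.2, 23.2, 11.5 and 25.4 FPKM, a log2 ratio of 1.06 (0.89 to 1.26). CYP26B1, which clears retinoic acid, and CYP3A5 and CYP2B6 were higher too, but at 2.50 FPKM or below in the vehicle and 2.5 μM libraries. With a pseudocount of 1, CYP3A5 and CYP2B6 were at 0.55 and 0.48, within 1.5-fold. Of 25 NRF2 and iron genes 2 were lower, the aldo-keto reductase AKR1C2, which fell by 0.90 and has near-identical family members, and the iron exporter SLC40A1, which fell by 0.64. MT1G, a zinc-binding metallothionein, was at 32.3, 18.5, 8.86, 32.1 and 35.4 FPKM, a log2 ratio of −1.86 (−2.46 to −1.29). The other 5 genes of the metallothionein list lay between 0.16 and 0.25, and metallothionein genes are similar enough to share reads.

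Interferon-stimulated genes lay mostly below vehicle. Of 30 compared, 3 were lower and none higher, beside 3.26% lower over all genes compared. Of the 30, 23 lay below vehicle, with a median of −0.29 at 2.5 μM, −0.09 at 1.25 μM and 0.01 with ATV. The median over all genes at 2.5 μM was −0.02. OASL, an antiviral oligoadenylate synthetase-like protein, was at 12.7 FPKM with vehicle, 9.60 with 1.25 μM XY018, 5.93 with 2.5 μM XY018, 11.4 with ATV and 7.85 with both, a log2 ratio of −1.08 (interval −1.35 to −0.84). IFI44L and RSAD2 were at 3.44 and 1.66 FPKM and at 2.39 and 1.36 FPKM. The abundant members ISG15 and BST2 had log2 ratios of −0.32 and −0.29. The 15 genes of MHC class I presentation all lay above vehicle but none past 1.5-fold, with a median of 0.11, from 0.03 for ERAP1 to 0.49 for ERAP2.

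Large parts of the transcriptome that serve growth and housekeeping stayed within 1.5-fold. None of 35 DNA replication genes, 28 mitosis and spindle genes and 15 G1 cyclins and inhibitors passed 1.5-fold, with medians of 0.00, −0.10 and 0.03. CCND1, cyclin D1, was at 28.9 and 35.4 FPKM. The same held for 38 cytosolic ribosomal protein genes (median −0.03), 34 respiratory chain genes (−0.09), 25 proteasome genes (−0.08) and 26 lysosome genes (0.12), where SQSTM1, the autophagy receptor p62, lay highest at 120 and 179 FPKM. Of 24 genes of the BCL2 family and death receptors BCL2A1, an inhibitor of apoptosis, was the only one past 1.5-fold, at 1.31 and 3.42 FPKM with an interval of 0.19 to 2.52. Heat shock proteins had a median of −0.15, with 2 of 18 lower, DNAJB4 and the small chaperone CRYAB, the latter with an interval of −1.75 to 0.11. Of 12 histone genes 2 were lower, H2BC21 at 25.2 and 14.9 FPKM and H1-4 at about 8 and 2 estimated fragments. Of 9 glucocorticoid targets PDK4 was higher, and the median was 0.23.

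**Figure D5:**
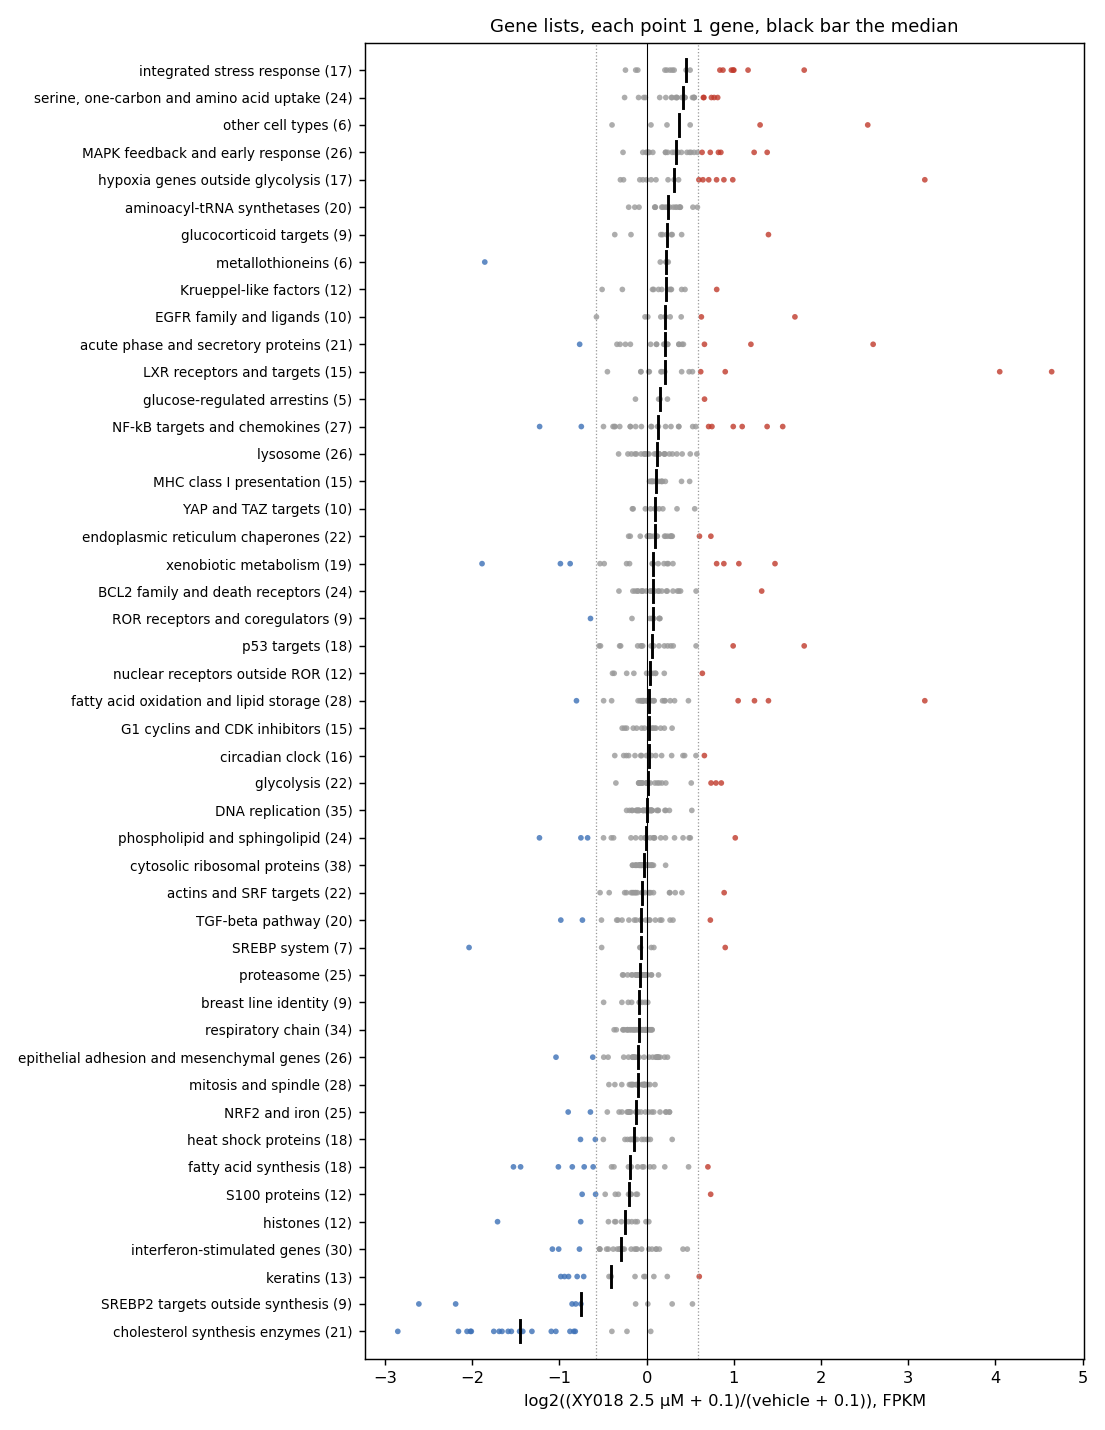
Each row is a gene list with the number of genes compared in brackets, each point the log2 ratio of 1 gene at 2.5 μM XY018 against vehicle, blue past 1.5-fold lower and red past 1.5-fold higher, and the black bar the median. Medians run from −1.46 for the cholesterol synthesis enzymes to 0.45 for the integrated stress response, and the DNA replication, ribosomal and proteasome rows hold no gene past 1.5-fold.

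Several of the highest and lowest ratios fell on genes of no list. CALCB, a calcitonin gene-related peptide, was at 1.34 FPKM with vehicle, 2.0 with 1.25 μM XY018, 5.49 with 2.5 μM XY018, 1.6 with ATV and 5.53 with both, a log2 ratio of 1.96 (interval 1.16 to 3.05). NRP2, a coreceptor for semaphorins and VEGF, was at 8.32, 16.2, 20.2, 8.66 and 14.8 FPKM, a log2 ratio of 1.27, and CEACAM5, an epithelial adhesion protein, at 2.45, 5.62, 6.55, 3.18 and 7.80 FPKM, a log2 ratio of 1.38. The small GTPase gene RHOF and the kinase DAPK2 had log2 ratios of 1.25 and 1.2, and TMEM156 1.65. All of these were above vehicle in every XY018 library. On the lower side PDE4B, a cAMP phosphodiesterase, was at 6.33, 2.89, 1.94, 7.41 and 2.94 FPKM, a log2 ratio of −1.66 (−2.07 to −1.36), and ANXA8, an annexin with near-identical copies, at 12.7, 5.75, 4.48, 11.8 and 5.21 FPKM, a log2 ratio of −1.48. CLIC3, an intracellular chloride channel protein, was at 12.8, 5.25, 5.49, 12.9 and 2.36 FPKM, lowest with both compounds. EDN2, an endothelin, and ZNF789 had log2 ratios of −1.2 and −1.03. SMN2 was at 5.96 FPKM with vehicle and listed at 0 with 2.5 μM XY018, and also with ATV, while its near-identical copy SMN1 was at 13.6 and 20.7 FPKM, so reads may have been assigned differently between these copies and no fold is given for SMN2.

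Over the named genes, the letters CCAAT, the NF-Y box that often accompanies SREBP sites, were held by 29 of 49 promoters of lower genes, 24 of 59 of higher genes and 35.7% of all promoters. Among the cholesterol synthesis enzymes, which are part of the lower named genes, 12 of the 16 with a promoter in the set held it. The 9 letters TCACCCCAC, a sterol regulatory element core, were in 0.425% of all promoters and in none of those of the named genes past 1.5-fold, which says only that these letters are not within the window searched.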

How the data were processed

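RNA-seq libraries of HCC70 cells were analysed as deposited. Per the labels and methods, the authors aligned reads to GRCh37 (hg19) with BWA and Bowtie and quantified RefSeq genes with Cufflinks. The table deposited for HCC70 holds FPKM values, scaled by Cufflinks before deposit. The unit is inferred from the methods and the values, since the header names none. The GSK805 table was not used. Gene lists (47) and the rules below were chosen with earlier results of these data known. Fragments per library were estimated from the spacing of low FPKM values of genes with 1 annotated transcript of 400 to 2500 nt in GENCODE, whose GRCh37 coordinates are printed. The fold and interval calculations were tested on simulated data. Named genes (172) were the 20 highest and 20 lowest ratios past 1.5-fold at 5 FPKM or above outside the cholesterol enzymes, every listed gene past 1.5-fold or else the most extreme of its list, and fixed single genes. RefSeq promoters matched 130 of them by gene ID. Other members are given for context, and some genes are not reported here. Alternatives were pseudocounts of 1 and 0.01, no filter, 5 FPKM, centring and 2-fold. Python 3.11.15, numpy, pandas, scipy and matplotlib were used.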

Additional observations from a re-analysis of the deposited data

Results flagged for a closer look

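Of the named genes past 1.5-fold with 2.5 μM XY018 in HCC70, 116 could be compared in MDA-MB468, each line against the vehicle of its own separately normalized table. In MDA-MB468, 53 of them were past 1.5-fold in the same direction, 48 were within 1.5-fold, and 15 (12.9%) were past 1.5-fold in the opposite direction. Over all 477 genes past 1.5-fold in HCC70 and compared in both lines, 149 were past it in the same direction and 84 (17.6%) in the opposite one. The difference between the lines was not tested, since each condition had 1 library. Of genes lower in HCC70 and higher in MDA-MB468, CYP1A1 had log2 ratios of −1.89 and 2.91, OASL −1.08 and 0.91, UGT1A6 −0.88 and 1.5, KRT6B −0.80 and 1.00, and the histone gene H2BC21 −0.76 and 1.65. The desaturase gene FADS3 had −0.72 and 0.63, and the chaperone gene DNAJB4 −0.59 and 0.76. Of genes higher in HCC70 and lower in MDA-MB468, EGR1 had log2 ratios of 1.38 and −1.26, CD14 1.30 and −1.27, MYL9 0.89 and −1.69, CA9 0.80 and −1.82, and the ERK-induced factor ETV5 0.73 and −1.21. ELOVL6 had 0.70 and −1.71, SPRY4 0.64 and −1.0, and KRT23 0.60 and −1.21. In HCC70 the interval of MYL9 was −0.0016 to 2.01 and included 0. With a pseudocount of 1, FADS3, DNAJB4, MYL9, ETV5 and SPRY4 were within 1.5-fold in HCC70. CYP1A1 was at 24.5 and 6.55 FPKM in HCC70, and at 7.11 and 54.2 FPKM in MDA-MB468, so the line with the higher vehicle level was the one where it fell.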

How the results depend on the processing

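The count of genes lower was 382, and it was 191 with a pseudocount of 1, 1067 without a filter on low values, 140 with a filter of 5 FPKM and 104 at a threshold of 2-fold. The count of genes higher was 307, and in the same order 183, 900, 141 and 87. A stricter filter or threshold takes genes out by construction, and a higher pseudocount shrinks the ratios of low genes. With a pseudocount of 0.01 the counts were 406 and 328, and with the median log2 ratio set to 0 they were 347 and 339. No named gene past 1.5-fold changed direction with either pseudocount or with the centring, but with a pseudocount of 1, 17 of the 142 reported were no longer past 1.5-fold: RSAD2, ORM1, FADS3, SLC40A1, DNAJB4, S100A2, ADM, AREG, SPRY4, NR4A1, BNIP3, ETV5, ENO2, CYP3A5, CYP2B6, MYL9 and FGF21. The log2 ratios of 8 named genes left their counting interval with it, among them STARD4 (−2.19 to −0.95), CDH5 (2.54 to 1.23), CYP26B1 (1.47 to 0.63), ABCG1 (4.65 to 3.98) and ABCA1 (4.05 to 3.61). The numbers of lower or higher genes in a list moved by over 1.5 times for 8 such counts with a pseudocount of 1, 13 at 5 FPKM, 6 with the centring and 36 at 2-fold. The depth is an estimate and the intervals leave out variation between cultures and libraries. No paired analysis was possible because each condition has 1 library.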
